A study of Mus musculus with 6 samples.

Results

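Circular RNAs whose back-spliced ends lie 5 to 20 kb apart on the genome were described in peritoneal macrophages of mice given BSN-37, a compound known here by its code name only, or phosphate-buffered saline (PBS). They were taken from the deposited circular RNA table as all loci, 1 per chromosome, start and end, whose span from start to end was at least 5000 and at most 20000 bases. This rule used coordinates only and no read count, and it gave 450 of 1273 loci, or 35.3%. The animals were male Balb/c mice, 6 to 8 weeks old. All of them, controls included, had received 2 mL of 3% thioglycollate broth into the peritoneum 3 days before sampling, a treatment that draws monocytes and macrophages into the cavity. The PBS group then received 0.2 mL of PBS and the BSN-37 group 0.2 mL of BSN-37 at 48 µg/mL, and the cavity was washed out after 12 h. Cells that had settled on plastic for 4 h were lysed, and each of the 3 libraries per group stands for a pool of 6 mice, so differences between single animals were not measured. RNA was depleted of ribosomal RNA and sequenced with strand information. The comparison asks which of these circular RNAs differed between BSN-37 and PBS.

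A circular RNA forms when the spliceosome joins the end of an exon to the start of the same or an earlier exon, a reaction called back-splicing. It competes with linear splicing of the same transcript and is helped by introns on both sides that pair with each other or that bind the same RNA-binding proteins. The ring has no free end, is therefore spared by exonucleases and tends to outlive the linear messenger RNA. Only reads across the back-splice junction tell the ring from the linear transcript, so the number of junction reads is the measure used throughout. The span on the genome includes the introns, which are usually removed, so a ring of this class can be short.

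The sequences around the junctions show what was counted. Each line gives the last bases of the final exon of the ring in lower case and the first bases of its first exon in capitals, 5′ to 3′ on the RNA's strand, read from GENCODE M21 transcripts (GRCm38). Rings of coding sequence are shown with 30 bases on each side and those with untranslated bases with 15. The first 3 are the most read rings that lie on 1 transcript, and Sfi1, Dcaf17, Tcf20 and Erbb2ip are those on which the comparison below turns.
Mettl9 ring, chr7:121047838-121057399, plus strand, exons 2 to 4 of 5: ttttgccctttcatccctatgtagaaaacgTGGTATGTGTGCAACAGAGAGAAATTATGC
Elf2 ring, chr3:51308050-51326035, minus strand, exons 2 to 4 of 10: agaattcagaaacagTAGTTCCAGAGAACC
Lrch3 ring, chr16:32950292-32961744, plus strand, exons 2 to 6 of 21: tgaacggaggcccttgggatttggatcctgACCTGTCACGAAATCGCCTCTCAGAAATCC
Sfi1 ring, chr11:3140137-3146292, minus strand, exons 15 to 22 of 33: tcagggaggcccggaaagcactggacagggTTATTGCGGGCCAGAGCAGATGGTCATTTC
Dcaf17 ring, chr2:71056495-71063495, plus strand, exons 2 to 4 of 15: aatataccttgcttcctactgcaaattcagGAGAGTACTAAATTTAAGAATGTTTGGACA
Tcf20 ring, chr15:82851513-82857284, minus strand, exon 2 of 5: atcgccagagagatgGAGGGCTGCTGGCCT
Erbb2ip ring, chr13:103884143-103889285, minus strand, exons 2 to 4 of 27: atgtcagcaaaaatgAATGTTGGCTCAATT

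Depth over genes was 55882693 to 65456020 reads per library, and back-splice junctions took 2447 to 4564 reads. The summed level of 9 macrophage genes was 15260 to 17740 FPKM (fragments scaled to transcript length and depth) in PBS and 15460 to 18050 in BSN-37, which fits the labelled cell type. Most of that sum was Lyz2. Summed B cell markers were 15.1 to 29.9 FPKM in PBS and 27.3 to 58.4 in BSN-37 (9 genes), and neutrophil markers 79.3 to 127 and 120 to 232 (10 genes). The neutrophil sum was mostly Csf3r and S100a8, and its genes did not move together. Csf3r was at 57.95, 62.7 and 54.2 FPKM in PBS and 70.5, 87.2 and 83.3 in BSN-37. Ly6g was at 1.12, 1.80 and 1.03 and at 0.698, 1.32 and 0.408. Of 10 T and NK cell genes Ncr1 and Prf1 were listed at 0 in every library, with sums of 1.37 to 2.26 and 1.78 to 3.58 FPKM that were mostly Cd2. Eosinophil and mast cell markers (8 genes, Prg2 and Fcer1a at 0) summed to 0.250 to 0.501 and 0.663 to 0.935 FPKM, and markers of mesothelial cells and fibroblasts (10 genes) to 2.77 to 8.19 and 3.55 to 9.12 FPKM. The part of these other cells in the results below was not tested, and in such bulk samples fewer cells of a type and less RNA per cell cannot be told apart. PBS library 1 stood apart in a principal component analysis of coding genes, where component 1 carried 40.9% of the variance, at -36.7 against -1.61 to 14.1 for the other 5 libraries.

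The rings of 5 to 20 kb were mostly short chains of a few coding exons. Both ends matched exon edges of 1 annotated transcript in 345 of the 450 (76.7%), and these held 87.2% of the members' reads. Among them the median ring joined 4 exons and was 622 bases long once spliced, with quartiles of 471 and 943 bases, so the genomic distance of 9699 bases at the median was mostly intron. Spliced lengths assume that every annotated exon between the ends is kept, which junction reads do not show. Under 5 kb the median was 2 exons and 516 bases (339 rings), and over 20 kb it was 6 exons and 873 bases (139 rings). A single exon made up 102 rings under 5 kb but only 1 of 5 to 20 kb, the Tcf20 ring shown above, whose 5772 bases of span are all exon. Exon number and span are bound together by construction, so these differences describe the classes and were not tested.

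**Figure D1:**
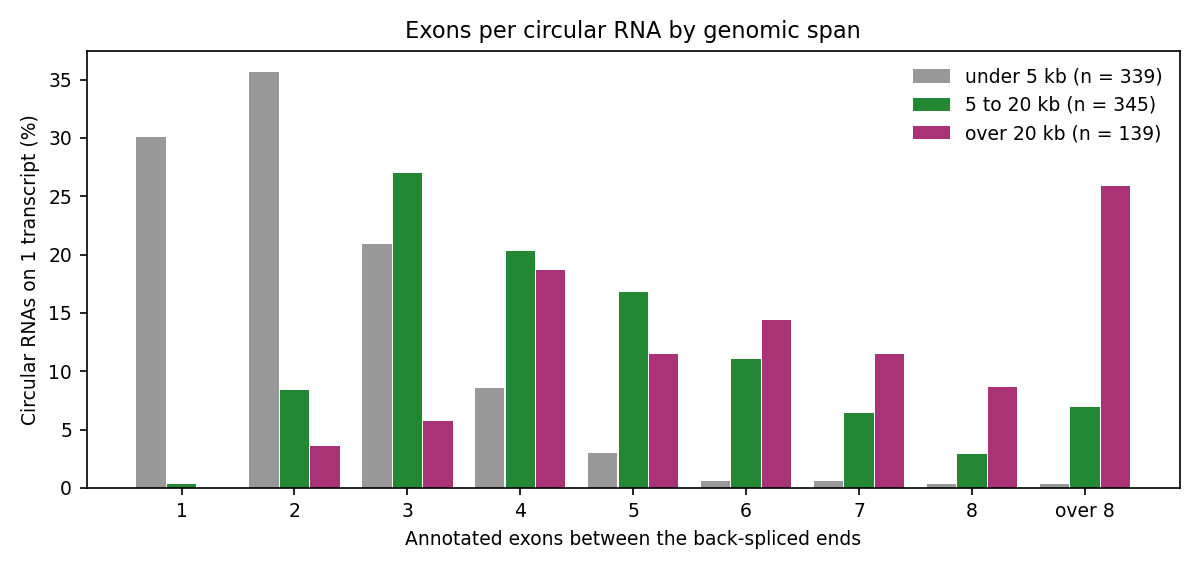
The number of annotated exons between the back-spliced ends (x axis) is plotted against the share of rings in percent (y axis) for rings under 5 kb (n = 339), of 5 to 20 kb (n = 345) and over 20 kb (n = 139) whose ends lie on 1 transcript. In the middle class the tallest bar stands at 3 exons (93 rings), and a single exon was found once.

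Where the rings began followed a simple pattern. The first exon of the ring was exon 2 of its transcript in 137 of 345 rings (39.7%), and these took 59.3% of the reads of such rings, while 2 rings began at exon 1 and none ended at the last exon. The start at exon 2 was not particular to this class. It was found in 41.6% of rings under 5 kb (62.1% of reads) and 45.3% over 20 kb (75.65% of reads). Back-splicing needs an acceptor site in front of the ring and a donor site behind it, which a first and a last exon lack. The 2 rings listed from exon 1, in Rreb1 and Ckap5, held 59 and 11 reads. Coding sequence alone made up 270 rings (78.3%), and 64 (18.6%) held 5′ untranslated sequence and the start of the coding sequence, the form of the Elf2, Tcf20 and Erbb2ip rings. The length was a multiple of 3 bases in 91 of the 270 coding rings. Median lengths of the introns before and after the ring were 8537 and 6397 bases, against 8214 and 6536 bases for rings under 5 kb and 16060 and 10010 bases for those over 20 kb.

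The other 105 loci had ends that no single transcript explains. Both ends matched edges of different transcripts in 12, one end matched in 47 and neither end in 46 (10.2%), compared with 225 of 618 loci (36.4%) with neither end under 5 kb. They held 681 reads, 90 of them lay within an annotated gene, and 5 of the 105 were read in at least 3 libraries. The best read was in Cacna1d, which encodes a pore subunit of an L-type calcium channel, and the next overlapped Rbm4, a splicing regulator, and the predicted gene Gm21992 on the same strand. Reads of those 2 overlapping genes cannot be told apart here.

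The members came from many genes. A host gene was listed for 432 members, 374 hosts in all, of which 327 gave 1 member, 39 gave 2 and 8 gave 3 or more. Members lay on 20 chromosomes, with 20 on X, none on Y and 40 on chromosome 2. An end was shared with another circular RNA for 99 members. Lin54, the DNA-binding subunit of the DREAM complex that represses cell cycle genes, gave 4, and 3 of these start from the same acceptor, so that the capitals are alike while the donors differ:
Lin54 ring, chr5:100480198-100485855, minus strand, exons 2 to 3: cacccgtcgtcacagCACCTGGGCATCTCT
Lin54 ring, chr5:100475689-100485855, minus strand, exons 2 to 4: aagtcgccaaataagCACCTGGGCATCTCT
Lin54 ring, chr5:100469825-100485855, minus strand, exons 2 to 5 of another transcript: gccagcctggactaaCACCTGGGCATCTCT
The ring of exons 2 to 4 had 11, 20 and 0 reads in PBS and 28, 0 and 15 in BSN-37, each in the order of pools 1 to 3. That of exons 2 to 3 had 0, 11 and 13, and 10, 13 and 0 reads in the same order. The widest had 0, 2 and 0, and 0, 4 and 7 reads, and the fourth, which begins at exon 3, was read in BSN-37 library 2 alone, with 6 reads. Each of the 4 was absent from at least 1 library of each group, and no pool held all 3 rings of the shared acceptor other than PBS library 2.

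Cacna1d also gave 4 members. The best read, of 14232 bases at chr14:30346798-30361029, had 11, 21 and 33 reads in PBS and 24, 23 and 16 in BSN-37. The other 3 were read in 1 library each, with 7, 6 and 3 reads. The gene itself was at 4.37, 5.52 and 4.01 FPKM in PBS and 7.09, 6.42 and 7.56 in BSN-37, groups that did not overlap (log2 difference 0.58 ± 0.15, edgeR, unadjusted p = 0.00352, adjusted p = 0.385). A circular RNA of 4152 bases with the same start, outside the size class, had 51, 122 and 161 reads in PBS and 180, 133 and 0 in BSN-37. The last 0 stands beside 16 reads of the 14 kb ring in the same library. Kif15, a mitotic kinesin, gave 4 rings of 5 to 16 exons with 2 to 4 reads each, and its level was 0.307 to 0.515 FPKM.

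Junction reads per ring were few, and most rings were seen in 1 library only. Of the 450 members 350 (77.8%) were read in a single library, 47 in 2, and 53 in at least 3, while 7 were read in all 6 and held 21.1% of the members' reads. The median total over 6 libraries was 4 reads, the smallest count above 0 in the table was 2, and 103 members had just those 2 reads. Of 75 members with at least 10 reads in some library, 60 had 0 reads in another library of the same group. Zswim6, with 43 reads in PBS library 1 and 0 in the other 5 libraries, and Ripk2, the kinase downstream of the NOD receptors, with 24 reads in PBS library 2 alone, were the best read of the members seen in 1 library (chosen after their values were seen). Among loci under 5 kb 27 of 618 were read in all 6 libraries and held 44.6% of that class's reads. Read over all 3 classes, 76.7% of loci were read in 1 library.

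**Figure D2:**
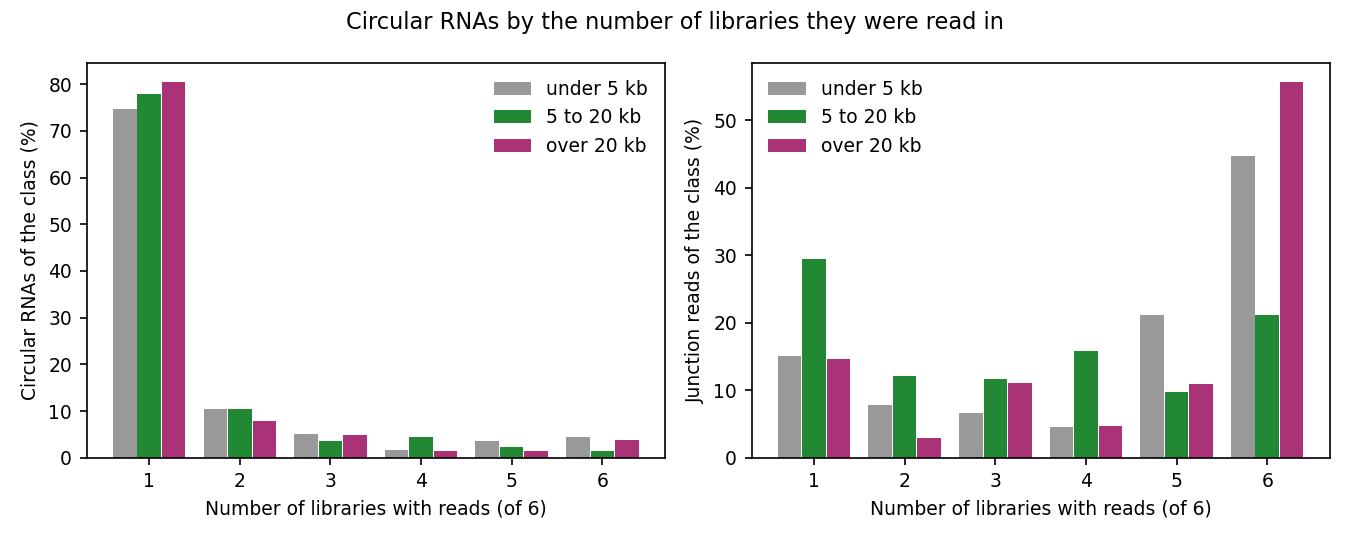
The number of libraries with reads (x axis, of 6) is plotted against the share of circular RNAs (left, percent) and of junction reads (right, percent) in each span class. For 5 to 20 kb the bar at 1 library stands at 77.8% of the rings and 29.5% of the reads, and the bar at 6 libraries at 1.56% and 21.1%.

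The most read ring came from Mettl9, which encodes a histidine methyltransferase, at chr7:121047838-121057399. It had 53, 50 and 69 reads in PBS and 54, 48 and 57 in BSN-37, so the groups overlapped and no library was low. The log2 difference, BSN-37 over PBS, was -0.07 with a standard error of 0.38 (edgeR's quasi-likelihood test, adjusted p = 0.996), the smallest error among the tested members. A second Mettl9 ring with the same start had 5 reads in PBS library 3 and none elsewhere.

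Elf2, an ETS-family transcription factor, followed with 52, 32 and 53 reads in PBS and 31, 41 and 42 in BSN-37, a log2 difference of -0.24 ± 0.45 (standard error). The ring of Lrch3, a leucine-rich repeat protein, had 31, 29 and 34 reads in PBS and 34, 44 and 25 in BSN-37 (0.20 ± 0.49). These groups overlapped too. Asb3, a substrate adaptor of ubiquitin ligases, was read in every library, with 27, 11 and 19 reads in PBS and 17, 8 and 12 in BSN-37 (-0.60 ± 0.78). So was the ring over Rbm4 and Gm21992, at chr19:4787361-4794009, with 14, 10 and 17, and 8, 30 and 10 reads (0.29 ± 0.85). The last of the 7 found in all libraries came from Glis3, a zinc finger transcription factor, with only 2 to 11 reads each.

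Ash1l, a methyltransferase for lysine 36 of histone H3, gave a ring of exons 3 and 4 with 13, 24 and 27 reads in PBS and 14, 25 and 0 in BSN-37. Here BSN-37 library 3 alone was empty. That library had the fewest junction reads of all, 2447, and 31 of the 53 members read in at least 3 libraries had 0 reads in it, against 7 to 19 in the other 5 libraries. The 10 members with most reads held 28.5% of all reads of the class.

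**Figure D3:**
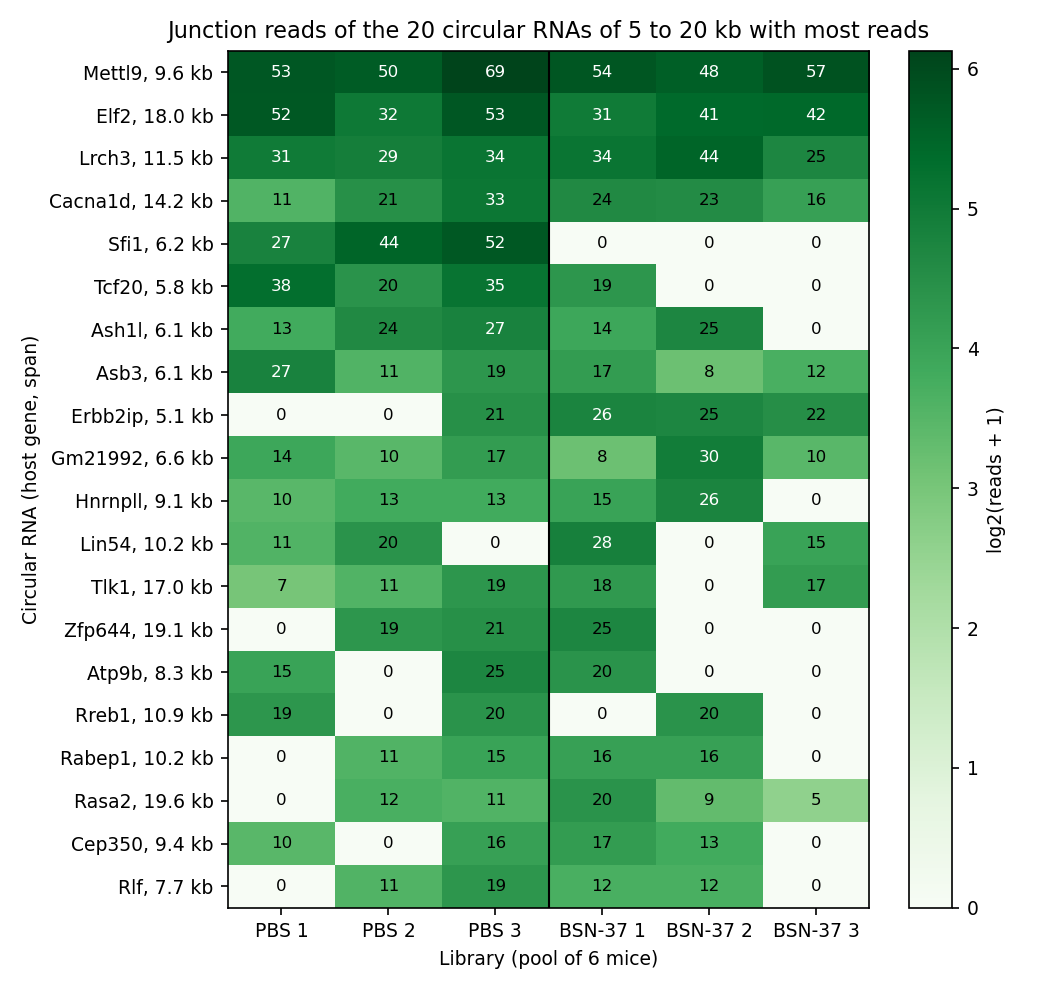
Junction reads are written for the 20 members with most reads (rows, host gene and span in kb) in the 6 libraries (columns), with shading on the log2(reads + 1) scale. The top row, Mettl9, runs from 48 to 69 reads, while Sfi1 has 27 to 52 in PBS and 0 in BSN-37, and 9 of the other empty cells lie in BSN-37 3, more than in any other library.

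As a class the rings of 5 to 20 kb took a smaller share of junction reads in the BSN-37 libraries. Pools 1 to 3 of PBS gave shares of 28.0, 27.1 and 24.4%, and pools 1 to 3 of BSN-37 gave 23.4, 22.1 and 17.7%, or 26.5% ± 1.86 and 21.1% ± 2.99 (SD, n = 3). The groups did not overlap, though the lowest PBS and the highest BSN-37 values lie close, with 95% exact binomial intervals of 23.1 to 25.7% and 22.2 to 24.7% that cover counting error only. The Sfi1 ring, described below, gave 27, 44 and 52 of the 1153, 804 and 1056 member reads in PBS and 0 in BSN-37. Part of the difference thus comes from 1 ring. Its 52 reads lie in PBS library 3, the PBS pool of lowest share. Without this ring the already small gap to the highest BSN-37 share is therefore smaller still. Shares without it are not given here, and the separation of the groups should not be read apart from this ring. The difference of -5.44 percentage points became -3.76 without BSN-37 library 3, and -3.51 (20.6 and 17.1%) over circular RNAs read in at least 3 libraries. That last set holds the Sfi1 and Dcaf17 rings, which passed its filter through the PBS libraries alone, so it is no independent check of the lower share. The share of rings over 20 kb was 17.3% ± 0.942 in PBS and 22.2% ± 4.91 in BSN-37, and shares of 1 total are not independent of each other.

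Set against gene reads the class did not separate the groups. It had 19.1, 12.9 and 16.1 junction reads per 1000000 gene reads in PBS and 19.1, 13.5 and 6.68 in BSN-37. The means were 16.05 ± 3.07 and 13.1 ± 6.24 (SD, n = 3), and the difference of -2.93 became 0.29 without BSN-37 library 3. The number of members read was 135, 106 and 118 in PBS and 140, 101 and 64 in BSN-37, in the order of total junction reads within the BSN-37 group (4564, 3723 and 2447). Fewer junction reads and fewer rings detected go together there. Gene reads ran the other way, at 55882693, 60594432 and 64868123 in pools 1 to 3 of BSN-37. Why junction reads were fewer was not tested.

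**Figure D4:**
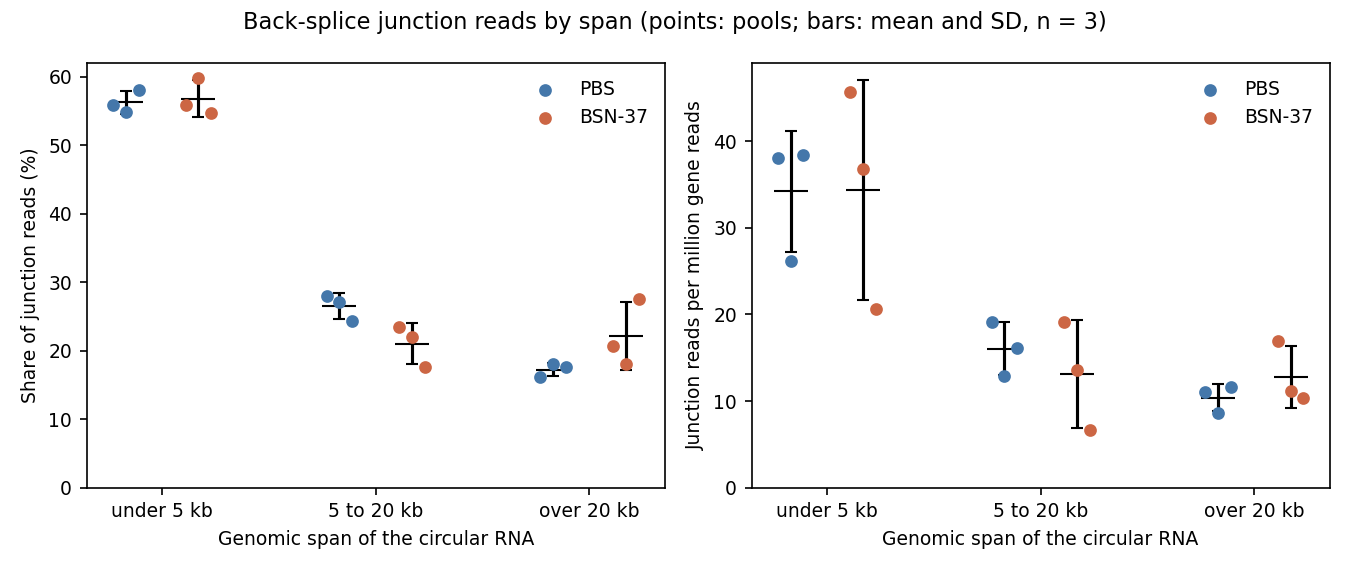
Left, the share of all junction reads (percent), and right, junction reads per 1000000 gene reads, are plotted for 3 span classes (x axis), with a point per pool and the mean and SD of 3 pools. In the 5 to 20 kb class the PBS shares of 24.4 to 28.0% lie above the BSN-37 shares of 17.7 to 23.4%, while the values relative to gene reads overlap.

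Ring by ring, 1 member was called, the Sfi1 ring, which was read in every PBS library and in no BSN-37 library, and the call was lost without some of the libraries. The test was edgeR's quasi-likelihood test over all 168 circular RNAs read in at least 3 of 6 libraries, 53 of them members, and the other 397 members were not tested. With Benjamini-Hochberg adjustment 1 of 53 members passed 0.05, and over all circular RNAs tested 1 of 168 did (0.595%). At an unadjusted p under 0.05 no member was higher in BSN-37 and 2 were lower, Sfi1 and Dcaf17, where 0.0% and 2.98% of all tested were higher and lower. Both had entered the test through the PBS libraries alone, so this count lends no support to a direction. Without PBS library 3 both rings were left in 2 libraries, below the filter, and the count was 2 higher and 0 lower. With loci read in at least 2 of the other libraries, a choice made after seeing the data, it was 1 higher and 5 lower. The count by direction thus turned with the filter. The same 2 passed when a mean ratio over 2 was asked for as well, the threshold stated in the design text, which 2.98% of all tested passed. The tested members split into 27 higher and 26 lower, with a median log2 difference of 0.04 beside -0.02 over all tested. Precision was low, with a median standard error of 1.83 on the log2 scale.

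Sfi1 encodes a centrin-binding protein of centrioles and spindle poles. Its ring of 8 coding exons, 841 bases, had 27, 44 and 52 reads in PBS and 0, 0 and 0 in BSN-37 (41.0 ± 12.8, SD, n = 3, against 0). With a floor of 3 reads over the BSN-37 group, scaled by the authors' library constants, it was at least 39.9-fold lower (adjusted p = 0.0418 with edgeR and 1.27e-05 with DESeq2). This floor covers counting error only and is no bound on the RNA itself. Counts of 0 were common: 60 of 75 members with at least 10 reads in some library had 0 in another of the same group. The ring passed the filter on libraries through its 3 PBS libraries alone, and so had to differ to be tested. With no filter, over all circular RNAs, edgeR's adjusted p was 0.00134. The call depended on single pools. Without any 1 PBS pool the ring is left in 2 libraries, below the filter, and with the filter lowered to 2 libraries, a choice made after seeing the data, edgeR's adjusted p was 0.347 without PBS library 1, 0.00883 without PBS library 2 and 0.433 without PBS library 3. Without BSN-37 library 2 it was 0.0607.

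The level of the host gene, which does not part linear from circular reads, did not follow. Sfi1 stood at 74.95, 64.4 and 60.4 FPKM in PBS and 58.0, 52.4 and 91.6 in BSN-37, with overlapping groups and a log2 difference of 0.09 ± 0.23 (edgeR, adjusted p = 0.907). No other Sfi1 ring was listed. An antisense gene, Gm11399, overlaps the ring's locus. Of the ring's 31-base words 16.5% also occur in transcripts of Gm2420, a gene elsewhere in the genome, while 313 of the 345 rings on 1 transcript have no such word in a gene elsewhere. These words were cut within the ring and not across its junction, so whether junction reads could be shared was not tested.

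Dcaf17, a substrate receptor of CUL4 ubiquitin ligases, gave a ring with 19, 8 and 6 reads in PBS and 0, 0 and 0 in BSN-37. This is at least 10.7-fold lower with the same floor, which again covers counting error only. The ring did not pass the adjusted threshold (edgeR, unadjusted p = 0.0191, adjusted p = 0.968). It, too, was tested because of its PBS libraries alone. The gene's own level was 2.82, 4.12 and 4.15 FPKM in PBS and 4.31, 4.10 and 5.09 in BSN-37.

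The next members by p were within the spread of the pools. The Tcf20 ring, from a transcriptional coregulator, had 38, 20 and 35 reads in PBS and 19, 0 and 0 in BSN-37, a log2 difference of -2.15 ± 1.60 (edgeR, adjusted p = 0.996). A longer Tcf20 ring that ends at the same base, 32054 bases in span and outside the size class, was read in every library, with 52, 37 and 24 reads in PBS and 27, 28 and 23 in BSN-37. In the 2 libraries where the single-exon ring had no read, this longer ring with the same acceptor had 28 and 23. The Ubn2 ring, from a partner of a histone chaperone, had 9, 9 and 13, and 9, 0 and 0 reads (-1.61 ± 1.87). The ring of Zfp280c, a zinc finger gene, had 5, 5 and 7, and 5, 0 and 0 reads (-1.57 ± 1.88). In each of these 3, BSN-37 library 1 held reads and the other 2 held none. Without that library BSN-37 is at 0, and the fitted differences, which then depend on the prior count, were -7.98 for Tcf20 (edgeR, adjusted p = 0.0726), -6.39 for Ubn2 and -5.53 for Zfp280c.

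In the other direction Erbb2ip, named Erbin in GENCODE, a scaffold protein that binds the ERBB2 receptor, had 0, 0 and 21 reads in PBS and 26, 25 and 22 in BSN-37 (log2 difference 1.92 ± 1.61, edgeR, unadjusted p = 0.269). Scaled by library, PBS library 3 fell just below all of BSN-37, and 2 PBS pools were empty. Without PBS library 3 the PBS group is at 0 and the fitted difference was 7.63 (edgeR, adjusted p = 0.342). Erbb2ip itself was at 15.3, 27.2 and 26.4 FPKM in PBS and 29.9, 38.5 and 38.8 in BSN-37, a log2 difference of 0.61 ± 0.21 that did not pass over all genes (edgeR, unadjusted p = 0.0185, adjusted p = 0.471). The groups of this ring, Sfi1 and Dcaf17 did not overlap, 3 of 53 members (5.66%) where 5.95% of all tested rings did the same, so the share among members was near that background. The Mtmr3 ring, from a phosphoinositide phosphatase, had 0, 4 and 8, and 11, 10 and 5 reads (1.24 ± 1.60). Cdk13, a kinase of the RNA polymerase II tail, gave 8, 0 and 0, and 9, 14 and 0 reads (1.48 ± 2.21). The rings of Cwf19l2 and Unkl and the Lin54 ring of widest span complete the 6 higher members of lowest p, with log2 differences of 1.35, 1.25 and 2.25 and standard errors near 2.

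**Figure D5:**
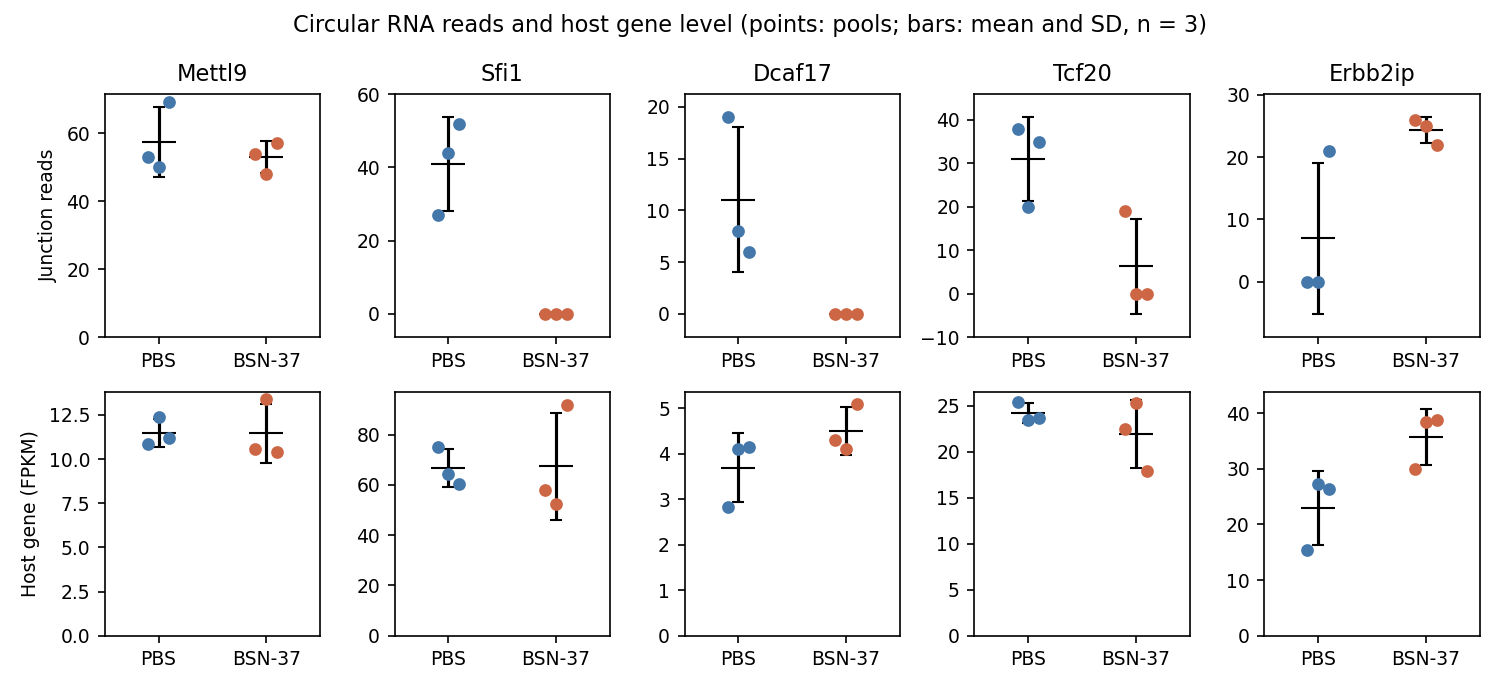
For 5 hosts the upper row plots junction reads of the ring and the lower row the level of the host gene in FPKM, with a point per pool and the mean and SD of 3 pools. The Sfi1 and Dcaf17 rings are at 0 in all BSN-37 pools while the levels of both genes overlap between the groups, and the Mettl9 ring overlaps between the groups.

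The authors' deposited table, which tests each circular RNA with DESeq2 and without a filter on libraries, calls 8 members at p under 0.05 and at least 2-fold, 7 lower (1.56%) and 1 higher (0.222%) in BSN-37. Over all 1273 circular RNAs the authors' deposited table calls 14 lower (1.1%) and 6 higher (0.471%), so the members' shares are near that background. Sfi1 and Dcaf17 lead that list, and the other 6 were read in 2 libraries each and so were not tested here. In the authors' deposited table Cnot6l, a deadenylase subunit, had p = 0.0177 with 24, 0 and 17 reads in PBS and none in BSN-37. Mrc1, the macrophage mannose receptor, had p = 0.0363 in the authors' deposited table, with 15, 0 and 9 reads in PBS and none in BSN-37. The 1 higher ring there was that of Acbd3, a Golgi protein, with 16, 16 and 0 reads in BSN-37 and none in PBS (p = 0.0199 in the authors' deposited table). In each of these 3 a pool of the group with reads was itself at 0.

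The host genes varied widely in level, and none was called between the groups. Mean FPKM over the 6 libraries had a median of 3.94 over 374 hosts, 309 had at least 1 FPKM in 3 libraries, and 8 were under 0.1 FPKM. The highest was Cd44, the hyaluronan receptor, at 213 FPKM, whose ring had 4 reads in PBS library 1 only. Across 432 members with a host, total junction reads and mean host FPKM had a Spearman correlation of 0.514, a description over loci that share libraries and sometimes hosts. Total reads had a correlation of -0.079 with spliced length (345 rings) and of 0.034 with span (450 members). Of 308 host genes in the test over coding genes none passed an adjusted p of 0.05 with edgeR, where 1 of 9850 genes did (0.0102%). At an unadjusted p under 0.05, 18 hosts were higher (5.84%) and 7 lower (2.27%), beside 4.63% and 4.41% of all coding genes. Their median log2 difference was 0.08, against -0.0018 over all coding genes.

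Of the genes that act in making and clearing circular RNAs none was called with edgeR and 1 with DESeq2. The list held 55 names of splicing factors, RNA-binding proteins that join or keep apart the flanking introns, and nucleases, of which 52 were tested. None passed with edgeR, 2 were higher (3.85%) and 1 lower (1.92%) at an unadjusted p under 0.05, and DESeq2 called 1, Sfpq, at an adjusted p of 0.0304, where it called 1.16% of all coding genes (114 of 9850). A count of 1 is near that background. Sfpq, an RNA-binding protein of long introns and paraspeckles, was at 32.1, 41.4 and 36.8 FPKM in PBS and 45.5, 53.8 and 47.7 in BSN-37, groups that did not overlap (log2 difference 0.48 ± 0.12, edgeR adjusted p = 0.382). Mbnl1, a splicing regulator that binds introns beside its own circular exon, was at 47.5, 74.0 and 71.0 FPKM and 85.3, 94.2 and 89.2 FPKM (0.53 ± 0.20, edgeR adjusted p = 0.512). Here PBS library 1 was the lowest of all.

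Khdrbs1, which encodes the RNA-binding protein Sam68, completes the 3 higher genes of lowest p, with means of 26.2 and 31.3 FPKM. Of the lower ones the splicing factor subunit Sf3a1 had 10.2, 9.81 and 10.1 FPKM in PBS and 9.24, 7.89 and 7.52 in BSN-37 (-0.30 ± 0.13, edgeR adjusted p = 0.542). Upf1, the helicase of nonsense-mediated decay, had means of 22.8 and 19.4 FPKM, and Ilf2, a double-strand RNA binding partner, of 6.75 and 5.92 FPKM. The list's median log2 difference was 0.05, with 32 genes higher and 20 lower, beside -0.0018 over all coding genes. Qk, whose protein quaking promotes back-splicing in other cells, was at 30.4, 57.6 and 56.8 FPKM in PBS and 61.8, 71.0 and 66.9 in BSN-37 and did not pass either (edgeR's quasi-likelihood test, adjusted p = 0.593). PBS library 1, the one that stood apart, was again the lowest.

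By the function of their hosts the members fell into small groups. Of 119 genes of chromatin and transcription 18 hosted 20 members (4.44%, against 5.34% of all circular RNAs), with 579 reads led by Elf2, Tcf20 and Ash1l. RNA binding and processing gave 13 members from 10 hosts (2.89%, against 1.65%) with 189 reads. The best read of these were the Cnot6l ring and a ring of R3hdm1, whose locus carries the microRNA gene Mir128-1, with 8, 6 and 10 reads in PBS and 9, 6 and 0 in BSN-37. Membrane traffic and cytoskeleton gave 14 members from 11 hosts (3.11%, against 2.83%). Among these the centrosomal Cep350 had 10, 0 and 16, and 17, 13 and 0 reads, and Dennd1b, an exchange factor for Rab proteins, 0, 7 and 8, and 14, 11 and 0 reads. Dennd1b was at 3.32, 4.07 and 3.47 FPKM in PBS and 5.08, 5.68 and 4.99 in BSN-37, without overlap and without passing over all genes (edgeR, unadjusted p = 0.00215, adjusted p = 0.366).

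Innate immunity and macrophage genes, 103 in number, hosted only 3 members (0.667%, against 1.10%), in Mrc1, Parp8 and Cd44, with 32 reads. A list of 83 genes of ubiquitin and proteolysis, which does not hold Asb3 or Dcaf17, gave 4 members with 23 reads, of which 3 lie at the overlap of Fgfr2 and Zranb1 and the fourth, in the F-box gene Fbxw4, had 8 reads in PBS library 1 alone. Of 32 hosts that are often described for mammalian circular RNAs 4 gave 7 members, with Elf2 first and then Crebrf, a regulator of the CREB3 factor, which had 7, 4 and 0 reads in PBS and 5, 0 and 4 in BSN-37. Of the tested members of these 6 lists none passed with edgeR, adjusted over all 168. These groups are small, and the shares are given as a description only.

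The deposited table also names microRNAs predicted to bind each circular RNA, by a method that the sources used here do not give. A microRNA recognises targets mainly through its seed, bases 2 to 8. At least 1 was listed for 271 members (60.2%), with a median of 5 where any was listed, against 63.8% under 5 kb and 79.0% over 20 kb. Of 760 pairs of a member and a microRNA found in the RefSeq table (1679 mature sequences), 339 (44.6%) had the 7-base complement of the seed in the spliced ring. Over all 1679 microRNAs and the same rings, 8.50% of pairs had one. The prediction method, which is not known here, may itself have selected on the seed, so these shares are no check of the listed pairs. Rings with a listed microRNA had a median spliced length of 763 bases (171 rings) and those without of 562 (174 rings).

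Examples are shown for 3 named rings, with the microRNA of most seed complements in each, its seed in capitals, and then the first match in the ring with the complement in capitals. Only the strand of the RNA was searched.
mmu-miR-331-3p: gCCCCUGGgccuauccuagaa
Tcf20 ring, 4 matches to CCAGGGG: agctatggacctccCCAGGGGa
mmu-miR-449c-5p: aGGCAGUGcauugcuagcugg
Sfi1 ring, 1 match to CACTGCC: tttccagcagcgagCACTGCCt
mmu-miR-7679-5p: aGGCUGGCaccaggaucccu
R3hdm1 ring, 4 matches to GCCAGCC: tatgagtcttgcccGCCAGCCa
The Tcf20 ring, the longest on 1 transcript, had a match for 21 of the 26 listed microRNAs that RefSeq holds, the Sfi1 ring for 1 of 3 and the R3hdm1 ring for 2 of the 3 that RefSeq holds of 4 listed. The best-read Mettl9 ring and the Lrch3 and Dcaf17 rings had no microRNA listed. A match is a description of the letters and shows no binding.

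At the bounds of the size class the loci were few in reads on either side. The shortest member, in Tmem184c at 5003 bases, had 5 reads in PBS library 1, and the nearest locus below, in Acin1 at 4994 bases, had 8 reads in BSN-37 library 2. The longest, in Adamts6 at 19937 bases, had 3 reads in PBS library 2, and the next above, in Ift81 at 20028 bases, had 2 reads in BSN-37 library 2.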

How the data were processed

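Peritoneal macrophage RNA of 6 pools, 3 per group, was analysed from a gene table and a circular RNA table. Per the submitters' processing notes the genome build was GRCm38, while aligner, circular RNA caller, strand setting and microRNA prediction were not given in the sources used here. In the design text the assay is called a microarray, but the library protocol and the values are those of sequencing, and they were treated as such. The deposited gene table holds read counts and FPKM made by the authors, per the file headers. For circular RNAs the authors deposited counts of reads across each junction, and beside them, per the file headers, the signal SRPBM, which equals the count divided by a library constant of 16.3 to 19.7 whose scale is not clear, so reads are printed and the constants serve as library sizes. That table also gives the authors' DESeq2 p-value with a log2 fold change per locus, per the file headers. The deposited group means (4 columns) were not used.

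Loci listed under more than 1 host gene (30 of 1273, 6 of them members) were counted once, with the first listed gene for FPKM. Rings were matched to GENCODE M21 exon edges, 1 transcript each. edgeR 4.0.16 (R 4.3.3, glmQLFit and glmQLFTest, two-sided, no covariates, Benjamini-Hochberg) was run on circular RNAs read in at least 3 of 6 libraries, and with TMM factors on coding genes with at least 1 FPKM in 3 libraries. DESeq2 1.42.0 was an alternative, and standard errors are the log2 difference over the root of F. Both fits were run on simulated data with known changes and a set dispersion that was not estimated from these counts. That run cannot show how the fits behave on counts with as many empty pools as here. Within each group no pair of libraries agreed within sampling noise over genes (chi-square per degree of freedom 61.5 to 161). P-values set a group difference against the spread between these pools, which the fits estimate partly from all loci together. Floors and intervals cover counting error only, since no molecular identifiers were used.

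Members and gene lists were chosen with earlier results of these data known. Named were the 10 members with most reads, the 6 of lowest p in each direction, all members of Cacna1d, Lin54 and Kif15 (the 3 hosts with most members), the loci at both bounds, 3 factor genes per direction and up to 2 members per host list. Glis3, Zswim6, Ripk2, Acbd3, Rreb1, Ckap5 and Qk were named after their values were seen. No sequence is printed for members of chromosome 18. The summed level of a further marker list is not reported here.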

Additional observations from a re-analysis of the deposited data

How the results depend on the processing

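The Sfi1 call was kept with library sizes from gene reads, with total junction reads and TMM or median-of-ratios factors, without a filter, with at least 10 reads, with DESeq2 and with a replicate block (adjusted p 1.27e-05 to 0.0461), and the count of called members stayed at 1 in each of these. The share difference lay between -6.63 and -3.76 percentage points when a library was left out. Leaving out a library gave 0 to 1 called members, 0 to 5 at an unadjusted p under 0.05 (5 lower without BSN-37 library 1, but 2 higher and 0 lower without PBS library 3) and 0 to 5 past the design text threshold. With loci read in at least 2 of the other libraries, a choice made after seeing the data because Sfi1 drops below the filter of 3 when a PBS library is left out, the ranges were 0 to 1, 1 to 6 and 1 to 6. With the filter of 3, Sfi1 and Dcaf17 drop out without PBS library 3. Without BSN-37 library 1, rings such as Tcf20, Ubn2 and Zfp280c pass it through PBS alone. The counts of higher and lower members in these fits therefore lend no support to a direction. Without a filter 7 members passed the unadjusted and the design text threshold, and 5 each with at least 10 reads, since more rings were tested (450 and 100 in place of 53). Among coding genes of circular RNA making and decay DESeq2 called 1 and edgeR 0 in each other setting. The median log2 difference of tested members lay between -0.49 and 0.32.

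Of 225 values for 18 named rings 214 kept direction and call, 3 were Sfi1 values with the same direction that no longer passed, and 8 turned direction, none of them called. Mettl9 became 0.059 with median-of-ratios factors. Over fits that leave out a library Mettl9 lay between -0.17 and 0.027, Lrch3 between -0.056 and 0.44, Cacna1d between -0.22 and 0.43, Ash1l between -1.44 and 0.019 and Gm21992 between -0.60 and 0.59. Among rings that did not turn, Tcf20 lay between -7.98 and -1.57, Erbb2ip between 1.34 and 7.63, Ubn2 between -6.39 and -1.03, Zfp280c between -5.53 and -0.999, Cwf19l2 between 0.49 and 2.82, Mtmr3 between 0.68 and 2.15, Cdk13 between 0.90 and 2.06 and Unkl between 0.69 and 1.82. The cause was not tested.

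The labels give both groups the same replicate numbers. Correlations of same-numbered libraries over coding genes were 0.059, 0.14 and -0.016, and those of the other pairs ran from -0.099 to 0.052. With 3 pools per group these values cannot show whether same-numbered pools shared a day or a batch. With the replicate block the called members stayed at 1, 3 members had an unadjusted p under 0.05 (1 higher and 2 lower, against 0 and 2 without it), Tcf20 was -4.64, Erbb2ip 4.66, Ubn2 -3.84 and Zfp280c -3.24, none of them called, and the median was 0.011. With a median of 4 reads per member over 6 libraries, most members could not be compared at this depth.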
